A study of Mus musculus with 10 samples.

Results

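The genes of the MYC and MAX network are 8 transcription factor genes, Myc, Mycn, Max, Mga, Mnt, Mxd1, Mxd3 and Mxd4, taken by symbol from a table of 32361 rows. Each symbol had 1 row, and all 8 rows reached 1 FPKM (mapped fragments, scaled by transcript length and by library size) in at least 1 fraction, so all 8 are among the 13595 rows compared. Cells of E14Tg2a.4, a mouse embryonic stem (ES) cell line, were sorted by fluorescence before RNA was taken. A line with knock-in reporters at both Esrrb and Tbx3 gave an Esrrb-negative/Tbx3-negative fraction (double-negative), an Esrrb-positive/Tbx3-negative fraction (single-positive) and an Esrrb-positive/Tbx3-positive fraction (double-positive), 3 steps towards naive pluripotency. A piggyBac line in which a piece of the Zscan4c promoter drives the reporter was split into Zscan4-positive and Zscan4-negative cells. All groups share the E14Tg2a.4 background, and whether each reporter line is 1 clone is not given in the labels. The labels list 2 libraries a fraction, 10 in all, but the table holds 1 value a gene and fraction. No value below therefore has an error, a test or a known read depth, and no difference was set against a spread between replicates. Differences are of log2(FPKM + 1), and 2-fold on that scale is used as a size rule.

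The sorted genes ran with the labels: Esrrb was at 43.3, 177 and 243 FPKM and Tbx3 at 0.638, 1.75 and 12.6 FPKM in double-negative, single-positive and double-positive cells, and Zscan4c was at 120 FPKM in Zscan4-positive against 0.255 FPKM in Zscan4-negative cells. All 8 ES cell markers were detected in every fraction, with Pou5f1 between 1990 and 2760 FPKM. Markers of other cell types were higher in double-negative and single-positive cells. The summed level of 13 fibroblast markers was 2370, 1710 and 140.0 FPKM in double-negative, single-positive and double-positive cells, and 161 against 134 FPKM in Zscan4-positive and Zscan4-negative cells. The defining collagen gene Col1a1 was at 0 in no fraction, and Lum was at 0 in both Zscan4 fractions. Dcn and Lum, both fibroblast markers, stayed below 1 FPKM in every fraction. The other 11 were at least 2-fold lower in double-positive than in single-positive cells, beside 6.94% of all rows. The summed level of 13 T-cell markers was 581, 427 and 43.2 FPKM, and 27.5 against 32.7 FPKM. None of the 13 was listed at 0. Of the 12 compared, 8 were at least 2-fold lower in double-positive minus double-negative cells, beside 12.2% of all rows. Cd2, Ccl5, Zap70 and Cd8b1 were within 2-fold. Both lists were chosen with earlier results of these data known. Which cells this RNA came from was not tested. In bulk RNA, fewer cells of a type and less RNA per cell cannot be told apart.

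MYC proteins bind DNA and activate transcription only as dimers with MAX, at the E-box. The MXD proteins and MNT also pair with MAX at such sites but recruit SIN3 and histone deacetylases, and so oppose MYC. MGA is a further MAX partner, part of the variant Polycomb complex PRC1.6, which holds meiotic and germ cell genes silent in ES cells. In mouse ES cells, LIF through STAT3 supports Myc transcription, and MYC and MYCN are partly redundant in self-renewal.

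Myc lies on chromosome 15 (mm10, 61985341 to 61990361, plus strand), and Mycn (12936093 to 12941836) and Max (76937269 to 76962248) both lie on the minus strand of chromosome 12. Mga is on chromosome 2 (119872551 to 119969581, plus), Mnt on chromosome 11 (74830924 to 74845725, plus), Mxd1 on chromosome 6 (86647045 to 86669159, minus) and Mxd4 on chromosome 5 (34176580 to 34187710, minus). All are protein-coding. The row of Mxd3, on the minus strand of chromosome 13 (GENCODE M21, 55325168 to 55329823), carries the same span as that of its opposite-strand neighbour Prelid1. The spans of both genes share 105 bases in GENCODE, and Prelid1 was at 176 to 203 FPKM. Whether reads were counted by strand is not given in the sources used here, so the Mxd3 level is uncertain.

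The canonical E-box, with the letters CACGTG, which read the same on both strands, was searched in RefSeq promoter windows (GRCm38.p6, 250 bases before to 50 after each gene's start). It occurs in 7.15% of 32851 windows. Of the 8 network genes, 7 have a window, and Max, Mnt and Mxd4 hold the E-box in it, while those of Mycn, Mga, Mxd1 and Mxd3 do not. An ESRRB site (TCAAGGTCA, in 0.423% of windows) and a STAT site (TTCCNGGAA, in 1.15%), searched on both strands, are in none of the 7. The 3 windows are shown because they place the network's own recognition sequence, in capitals, beside the hub and 2 of its repressor partners, chr12:76962199-76962498 (minus strand), chr11:74830674-74830973 (plus) and chr5:34187661-34187960 (minus) in that order.
Max: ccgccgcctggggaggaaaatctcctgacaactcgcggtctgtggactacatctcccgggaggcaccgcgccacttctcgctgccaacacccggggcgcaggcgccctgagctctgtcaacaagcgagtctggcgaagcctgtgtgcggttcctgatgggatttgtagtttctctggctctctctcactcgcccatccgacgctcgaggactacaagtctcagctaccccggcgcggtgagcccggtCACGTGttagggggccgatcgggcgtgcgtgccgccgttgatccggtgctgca
Mnt: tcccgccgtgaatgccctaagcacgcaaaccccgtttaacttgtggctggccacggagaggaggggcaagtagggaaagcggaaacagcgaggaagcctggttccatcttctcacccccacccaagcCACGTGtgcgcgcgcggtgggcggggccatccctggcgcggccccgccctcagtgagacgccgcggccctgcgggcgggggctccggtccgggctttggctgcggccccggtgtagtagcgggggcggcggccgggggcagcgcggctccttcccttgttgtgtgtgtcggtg
Mxd4: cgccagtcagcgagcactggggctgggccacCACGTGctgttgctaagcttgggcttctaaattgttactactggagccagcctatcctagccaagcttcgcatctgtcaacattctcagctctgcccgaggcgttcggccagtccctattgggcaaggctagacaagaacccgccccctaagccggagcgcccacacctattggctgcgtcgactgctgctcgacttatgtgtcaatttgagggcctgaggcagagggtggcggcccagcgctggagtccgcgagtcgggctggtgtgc
The E-box begins 3 bases before the start of Max, 123 bases before that of Mnt and 219 bases before that of Mxd4. These 3 genes had different profiles over the fractions, as given below. A match is a description of the letters and not a shown binding site.

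Across the 5 fractions Mycn was the most abundant member, with a mean level of 148 FPKM, followed by Max at 55.6, Myc at 36.8, Mga at 31.1, Mnt at 21.0, Mxd3 at 10.7, Mxd4 at 7.67 and Mxd1 at 3.34 FPKM. Max varied least, with a highest level 1.16 times its lowest, and Mxd4 most, at 7.77 times. Myc followed Mxd4 at 1.85 times, then Mxd3 at 1.74, Mga at 1.46, Mnt at 1.34, Mycn at 1.34 and Mxd1 at 1.23 times.

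**Figure D1:**
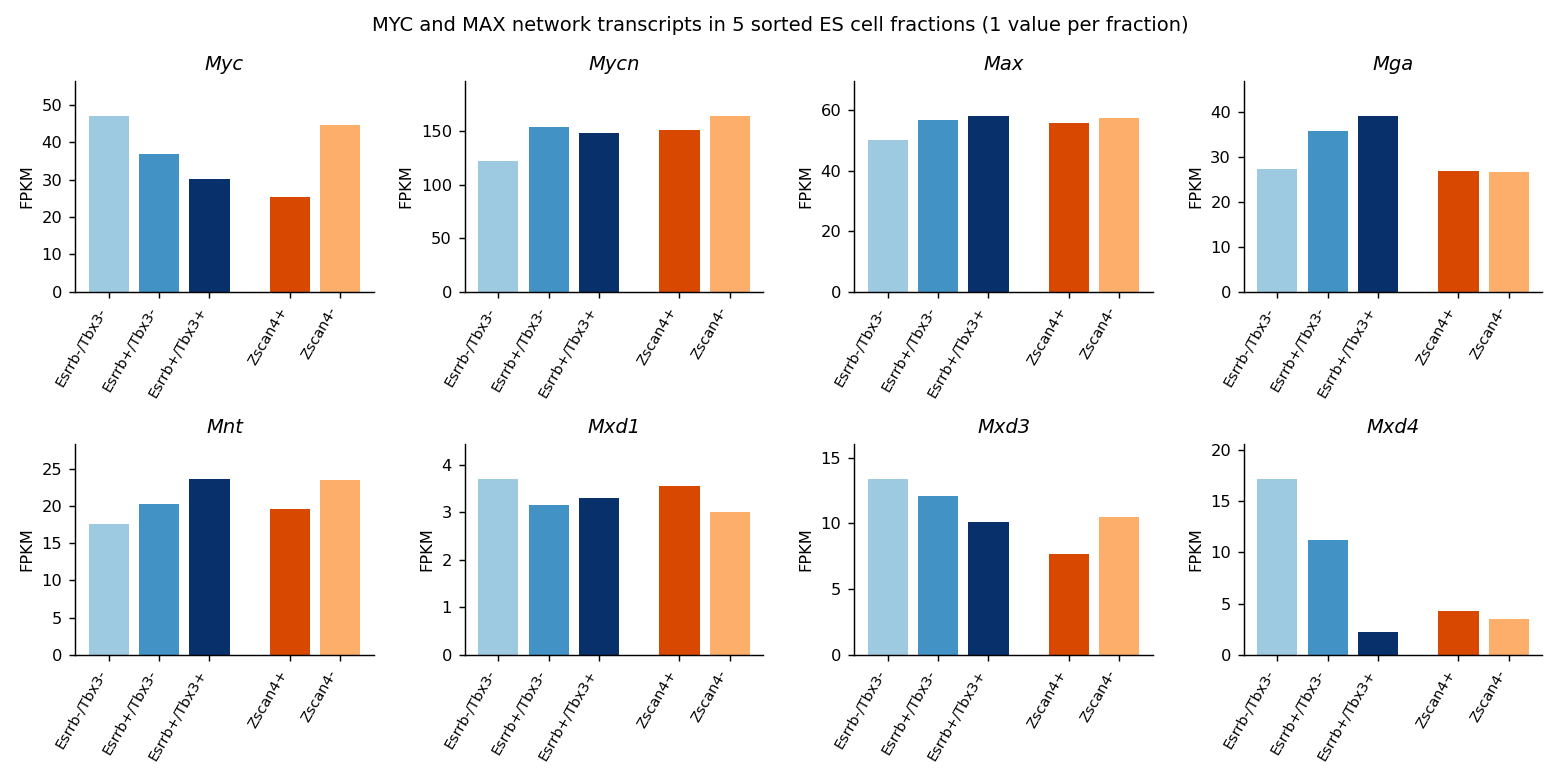
Level of each network gene in FPKM (y axis from 0, own scale per gene) in the 5 fractions, with 1 bar per deposited value and no error bar. Within the Zscan4 line Myc and Mxd3 are lower in Zscan4-positive cells, within the Esrrb/Tbx3 line Mga and Mnt are highest in double-positive cells, and Mxd4 stands at 17.2 and 11.2 FPKM in double-negative and single-positive cells, above the 2.21 to 4.29 FPKM of the other 3 fractions.

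Among the activators, Myc, the founding proto-oncogene of the family, was at 46.9, 36.9 and 30.2 FPKM over the 3 steps from double-negative to double-positive cells. In the other line it was at 25.4 FPKM in Zscan4-positive against 44.5 in Zscan4-negative cells. Its level was thus lower at each step towards naive pluripotency and, in the other line, with the Zscan4 reporter on. The differences were -0.34 for single-positive minus double-negative, -0.28 for double-positive minus single-positive, -0.62 for double-positive minus double-negative and -0.79 for Zscan4-positive minus Zscan4-negative cells. None reached 2-fold. A difference of that size or more negative was seen in 1.67% of all rows in the Zscan4 sort, and in 17.2%, 21.6% and 19.6% of rows in the other 3 comparisons in the order given. In the order over both lines neighbouring levels lay 5.25% to 22.2% apart, an order that includes a difference between the lines given further down, and without replicate values none of these gaps can be set against an error.

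Mycn, the family member named for neuroblastoma, was at 122, 154 and 148 FPKM over the 3 steps. It was at 151 FPKM in Zscan4-positive against 164 in Zscan4-negative cells. The double-negative fraction was the low one and the other 4 lay close together, with neighbouring levels 1.62% to 6.52% apart. The differences were 0.33, -0.06 and 0.27 in the Esrrb/Tbx3 line, in the order used for Myc, and -0.11 in the Zscan4 sort. Mycl, a relative listed beside the 8 members, was at 10.1, 4.82 and 5.19 FPKM in double-negative, single-positive and double-positive cells, and at 4.62 FPKM in Zscan4-positive against 6.94 in Zscan4-negative cells. Its largest difference was the first step, at -0.93.

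By the ratio of Mycn to Myc, the make-up of the MYC family therefore differed more than its sum. The summed level of Myc, Mycn and Mycl was 179, 196 and 183 FPKM in double-negative, single-positive and double-positive cells, and 181 against 215 FPKM in Zscan4-positive and Zscan4-negative cells. Mycn made up 68.2%, 78.7% and 80.7% of it in the first 3, and 83.5% in Zscan4-positive against 76.1% in Zscan4-negative cells. The ratio of Mycn to Myc was 2.61, 4.17 and 4.89 over the 3 steps, and 5.97 in Zscan4-positive against 3.68 in Zscan4-negative cells. A ratio of this kind within a column does not depend on the scaling between columns.

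**Figure D2:**
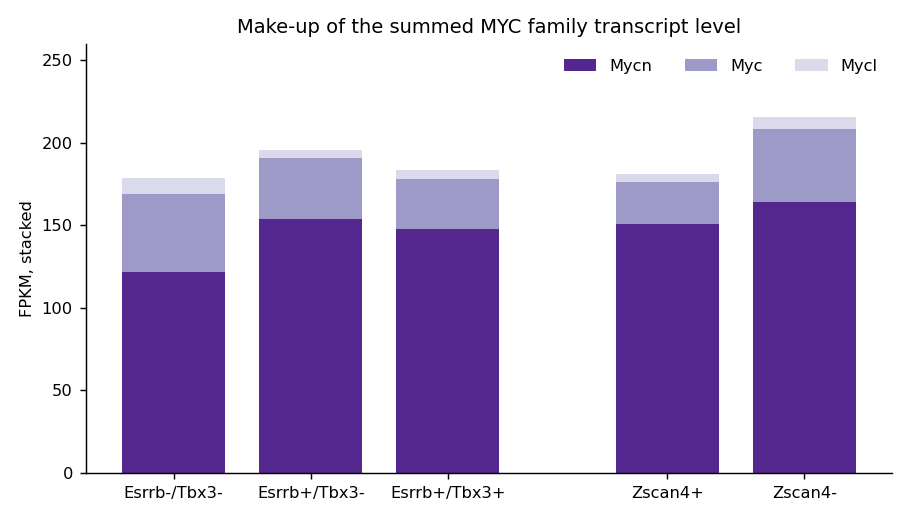
Stacked level in FPKM (y axis from 0) of Mycn, Myc and Mycl in the 5 fractions, 1 deposited value each. Sums lie between 179 and 215 FPKM, and the Mycn part is 68.2% in double-negative and 83.5% in Zscan4-positive cells, the lowest and highest of the 5.

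Max, the common dimer partner, was at 50.1, 56.7 and 58.0 FPKM over the 3 steps. It was at 55.9 FPKM in Zscan4-positive against 57.4 in Zscan4-negative cells. Double-negative cells were the low ones, and the other 4 values lay within 1.09% to 1.46% of their neighbours. The differences were 0.18, 0.03 and 0.21 in the Esrrb/Tbx3 line and -0.04 in the Zscan4 sort, and that of 0.03 was -0.04 under equal FPKM totals and -0.06 under equal totals without the wider shared profile defined below. The summed MYC family stood at 3.15 to 3.75 times the Max level in the 5 fractions.

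Among the repressors, Mnt, the widely expressed MYC antagonist, was at 17.6, 20.3 and 23.7 FPKM in double-negative, single-positive and double-positive cells. It was at 19.6 FPKM in Zscan4-positive against 23.6 in Zscan4-negative cells. Mnt was highest in double-positive and Zscan4-negative cells, 0.635% apart, and lowest in double-negative cells. The differences were 0.19, 0.21, 0.41 and -0.25, in the order used for Myc.

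Mxd3, an MXD family gene linked to proliferating cells, was at 13.4, 12.1 and 10.1 FPKM over the 3 steps. It was at 7.66 FPKM in Zscan4-positive against 10.5 in Zscan4-negative cells. Within each line its order over the fractions was that of Myc. The differences were -0.13, -0.24, -0.38 and -0.41. The neighbour with the same row span, Prelid1, was itself at 176 FPKM in Zscan4-positive against 203 in Zscan4-negative cells, and its part in the Mxd3 value was not tested.

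Mxd1, which is known from differentiating cells, was the scarcest member, at 3.70, 3.16 and 3.30 FPKM over the 3 steps. It was at 3.54 FPKM in Zscan4-positive against 3.0 in Zscan4-negative cells. Neighbouring levels were 4.39% to 7.33% apart. The differences were -0.18, 0.05, -0.13 and 0.18, and that of 0.05 was -0.01 under equal FPKM totals. Mxi1, a relative outside the 8, was also even, between 8.94 FPKM in Zscan4-positive and 11.2 FPKM in double-positive cells.

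Mxd4, a further MXD repressor gene, was the only member past 2-fold. It was at 17.2, 11.2 and 2.21 FPKM over the 3 steps. It was at 4.29 FPKM in Zscan4-positive against 3.45 in Zscan4-negative cells. Double-negative and single-positive cells were the high ones, and the other 3 fractions were low. The difference was -1.93 for double-positive minus single-positive cells, where 7.28% of all rows were past 2-fold, 6.94% lower and 0.346% higher. It was -2.50 for double-positive minus double-negative cells, where the share was 16%, 12.2% lower and 3.81% higher. With 1 of 8 members lower, both counts were near these backgrounds.

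The markers of other cell types were high in the same fractions as Mxd4. A set of 484 rows with at least 1 FPKM in double-negative cells was found by 2 conditions, a level of 0.5 to 1 times that of double-negative cells in the single-positive column and of 0.1 times or less in the other 3. Over these rows the single-positive over double-negative ratio had a median of 0.70, the middle 95% lay between 0.57 and 0.87, and Mxd4 had 0.652. The first condition holds this ratio to 0.5 to 1, so its spread was in part set by the selection. For summed fibroblast and T-cell markers the ratio was 0.721 and 0.735. Mxd4 is not one of the 484 rows, because it kept 0.129 of its double-negative level in double-positive cells, 0.25 in Zscan4-positive and 0.201 in Zscan4-negative cells. It is 1 of 804 rows in the wider shared profile, where the limit is 0.25 in place of 0.1, and lies just inside it. Of the other members, none is in either set, and their single-positive over double-negative ratios ran from 0.788 for Myc to 1.31 for Mga. The ratios of Myc and of Mxd1, at 0.853, lay within the middle 95% of the 484 rows. In double-positive cells Myc kept 0.644 and Mxd1 0.891 of the double-negative level. The part of other cell types in the level of Mxd4, Myc or any other member was not tested.

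**Figure D3:**
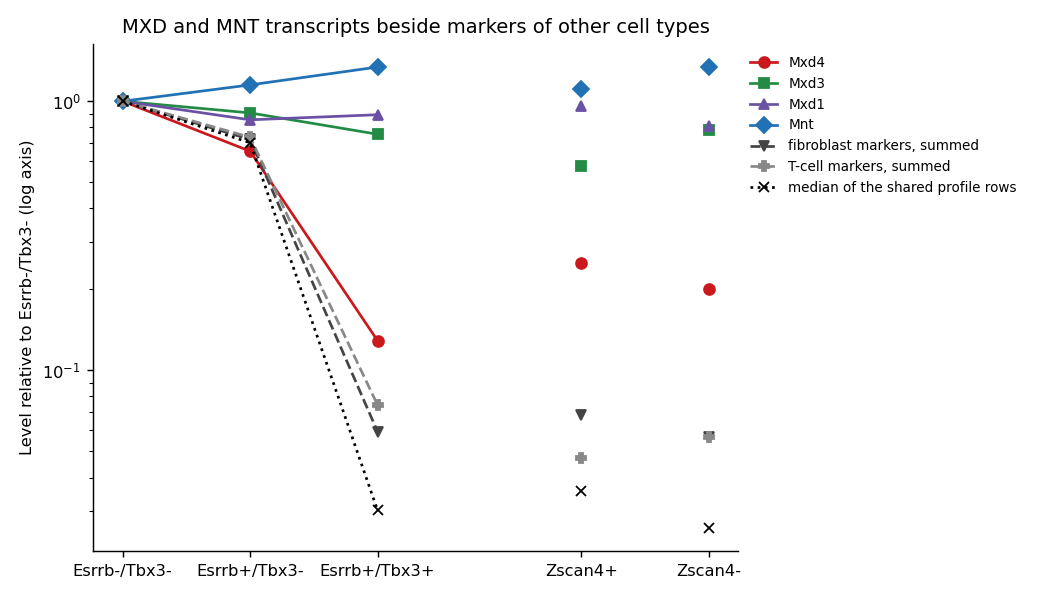
Level relative to double-negative cells (log axis) of the 4 repressor genes, the summed fibroblast and T-cell markers and the median of the 484 rows, over the 3 steps of the Esrrb/Tbx3 line (joined) and in the Zscan4 line (points). Mxd4 stands at 0.652 and 0.129 in single-positive and double-positive cells, while Mnt, Mxd1 and Mxd3 stay between 0.573 and 1.34 in all fractions.

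The repressor sum was accordingly set by Mxd4 in the Esrrb/Tbx3 line. Mnt, Mxd1, Mxd3, Mxd4 and Mxi1 together were at 61.1, 56.7 and 50.5 FPKM in double-negative, single-positive and double-positive cells, and at 43.9, 45.5 and 48.3 FPKM without Mxd4. In the Zscan4 line the sum was 44.0 FPKM in Zscan4-positive against 50.5 in Zscan4-negative cells, and 39.7 against 47.0 without Mxd4. Mxd4 made up 28.1% of the sum in double-negative and 4.38% in double-positive cells, and Mnt 28.9% and 46.9%.

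Mga, the MAX partner that also carries a T-box domain, was at 27.3, 35.8 and 39.0 FPKM in double-negative, single-positive and double-positive cells. It was at 26.8 FPKM in Zscan4-positive against 26.6 in Zscan4-negative cells. Within the Esrrb/Tbx3 line double-negative cells were the low ones, and the values of the Zscan4 line lay 0.523% apart. The differences were 0.38, 0.12 and 0.50 in the Esrrb/Tbx3 line and 0.01 in the Zscan4 sort, the last being -0.05 under equal FPKM totals. A difference at least as high as that of 0.50 was seen in 12.5% of rows.

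In the remaining comparisons no member was past 2-fold. For single-positive minus double-negative cells, 0 of 8 members were, beside 3.25% of all rows, 1.82% higher and 1.43% lower. For Zscan4-positive minus Zscan4-negative cells it was again 0 of 8, beside 4.33% of rows, 3.46% higher and 0.875% lower. The median absolute difference of the members was 0.26 for single-positive minus double-negative cells and 0.22 in the Zscan4 sort, against 0.19 and 0.18 over all rows. It was 0.17 for double-positive minus single-positive and 0.39 for double-positive minus double-negative cells, against 0.17 and 0.34. The network as a whole thus differed about as much as other transcripts, with Myc and Mxd4 as its most variable members on this scale.

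**Figure D4:**
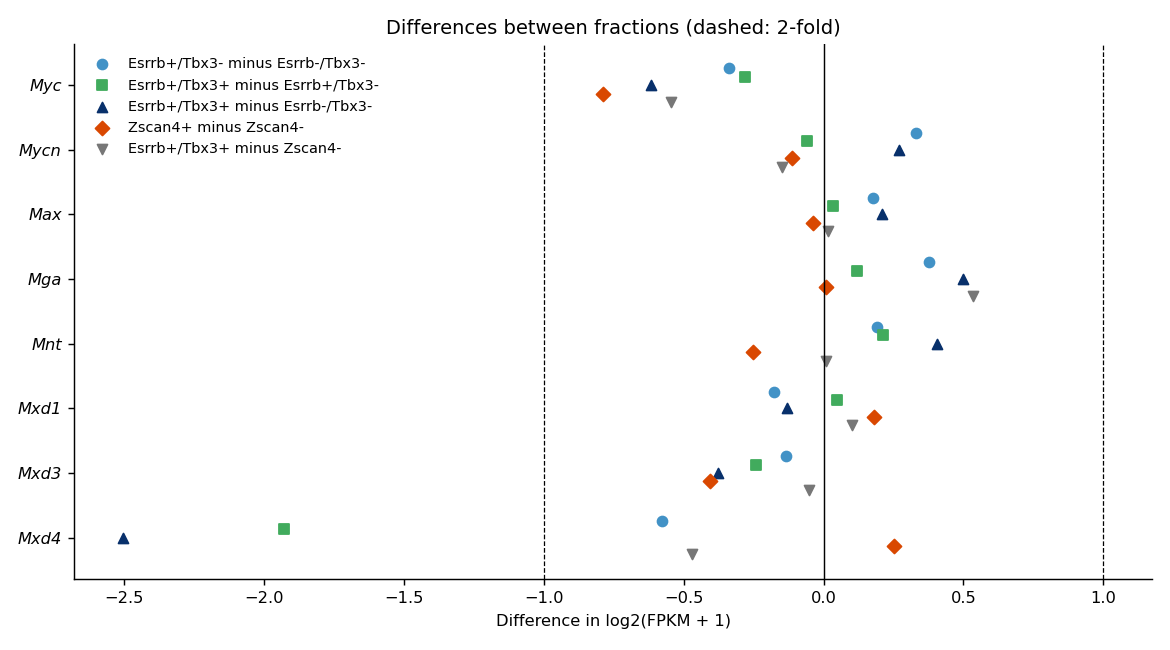
Difference in log2(FPKM + 1) (x axis) of the 8 genes in 5 comparisons of 1 value with 1 value, with dashed lines at 2-fold. Mxd4 is past the line at -1.93 and -2.50, and Myc lies left of 0 in all 5 comparisons, with -0.79 in the Zscan4 sort.

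The 2 lines can be set side by side through double-positive and Zscan4-negative cells, the pair of columns with the highest correlation across rows of the 5 compared (Pearson's r = 0.984, over 13595 rows that are not independent). Between them 0 of 8 members were past 2-fold, beside 1.56% of rows, 0.743% higher and 0.816% lower. Myc was at 30.2 FPKM in double-positive against 44.5 in Zscan4-negative cells, a difference of -0.55, and Mga at 39.0 against 26.6 FPKM, a difference of 0.53. Only 3.52% of rows were as far below and 4.77% as far above. Between the ends of the Esrrb/Tbx3 series Myc differed by -0.62 and Mga by 0.50, so the order of either gene's levels across lines is a description only. Max and Mnt differed by 0.02 and 0.01 between the same columns, each -0.04 under equal FPKM totals.

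PRC1.6 genes, the partners of MGA, did not share 1 direction. Of 12 such genes none was at least 2-fold higher in any of the 4 comparisons within a line. Of all rows, 0.346% to 3.81% were higher in these comparisons. Yaf2, a RING1-binding subunit, was lower in double-positive cells, at 2.11 FPKM against 5.39 in single-positive and 9.20 in double-negative cells, calls that were both lost with a pseudocount of 5. With 1 of 12 lower, both counts were near the 6.94% and 12.2% of all rows that were lower. The single-positive over double-negative ratio of Yaf2 was 0.586, within the range of the 484 rows, which were selected by this ratio. Yaf2 is in neither these rows nor the wider shared profile. It kept 0.457 of its double-negative level in Zscan4-positive and 0.514 in Zscan4-negative cells. Yaf2 was at 4.20 against 4.73 FPKM in Zscan4-positive and Zscan4-negative cells. L3mbtl2, a subunit that the complex needs in ES cells, was at 47.2, 63.2 and 83.1 FPKM over the 3 steps, a difference of 0.80 between their ends, within 2-fold. The subunit genes Pcgf6 and Rnf2 differed by 0.24 and 0.48 between the same ends, and E2f6, whose protein binds DNA for the complex, by -0.59. The list median for double-positive minus double-negative cells was -0.00, against -0.02 over all rows, and lay between -0.14 and 0.08 under the 3 scalings tried. In the Zscan4 sort the subunit gene Tfdp1, whose protein pairs with E2F factors, was at 39.4 against 62.5 FPKM.

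Germline genes known as targets of MGA and MAX were mostly higher with the Zscan4 reporter on. Of 11 such genes, 3 were at least 2-fold higher in Zscan4-positive cells and none lower, beside 3.46% of all rows higher. The count was 6 with a pseudocount of 0.1 and 1 with a pseudocount of 5. Of the 11, 9 lay above 0, Tex101 among them, which reached 1 FPKM in Zscan4-positive cells alone, at 1.35 against 0.343 FPKM, so that its place above 0 follows from the filter on low values. Dazl, an RNA-binding protein gene of germ cells, was at 13.2 against 4.07 FPKM in Zscan4-positive and Zscan4-negative cells, Slc25a31, a testis ADP/ATP carrier gene, at 6.28 against 1.77 FPKM, and Taf7l, a germ cell TAF gene, at 4.31 against 1.01 FPKM. Stk31, Mael and Stag3 stood at 9.0, 17.8 and 20.0 FPKM against 4.21, 9.85 and 11.6 FPKM, within 2-fold on the scale used. Sycp3, a meiotic chromosome axis gene, was at 34.7 against 46.6 FPKM, a difference of -0.42, and Tdrd1, a Tudor domain gene of the piRNA pathway, at 0.798 against 0.845 FPKM. In the same pair of fractions Mga was at 26.8 against 26.6 FPKM and Max at 55.9 against 57.4 FPKM. The 12 rows of 2-cell-like markers summed to 650.0 FPKM in Zscan4-positive against 0.921 FPKM in Zscan4-negative cells. The list was chosen with earlier results of these data known, and nothing particular to it was tested.

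In the Esrrb/Tbx3 line the same list had a median of -0.41 for single-positive minus double-negative and 0.38 for double-positive minus single-positive cells. The median of -0.41 was 0.02 over the genes that reached 5 FPKM, and both medians shrank to -0.15 and 0.15 with a pseudocount of 5. Mael, a piRNA pathway gene, was at least 2-fold lower in the first of these, at 4.69 against 13.4 FPKM, and Stag3, a meiotic cohesin gene, was at 17.4 FPKM in double-positive against 7.96 FPKM in double-negative cells, a difference of 1.04. The difference of Mael was within 2-fold with a pseudocount of 5, and that of Stag3 with a pseudocount of 5 and under equal FPKM totals. Several of the 11 lie near 1 FPKM, Taf7l between 0.571 and 1.18 FPKM in this line, where a pseudocount of 1 shrinks differences.

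The promoter windows of 8 of the 11 germline genes hold CACGTG, beside the 7.15% of all windows, namely Ddx4, Mael, Slc25a31, Stag3, Stk31, Sycp3, Taf7l and Tdrd1. Those of Dazl, Tdrkh and Tex101 do not. Of the 30 growth genes described further down, 23 have a window and 5 hold it. Both lists name known targets of proteins that pair with MAX at the E-box, so these shares could follow from how the genes were chosen. Stretches around the E-box are shown for both called genes that hold it, for Stk31 and Mael, and for Sycp3, which holds it 2 times. They are chr3:40708756-40708907 (plus strand), chrX:134476512-134476561 (minus), chr6:49395462-49395511 (plus), chr1:166238940-166238989 (minus) and chr10:88459501-88459571 (plus) of GRCm38.p6, with the E-box in capitals and, in Slc25a31, also an E2F site with the letters TTCCCGCC.
Slc25a31: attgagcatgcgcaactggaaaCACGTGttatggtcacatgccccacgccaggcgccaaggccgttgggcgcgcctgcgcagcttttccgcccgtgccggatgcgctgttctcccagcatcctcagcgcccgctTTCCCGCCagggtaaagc
Taf7l: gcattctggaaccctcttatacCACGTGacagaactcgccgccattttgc
Stk31: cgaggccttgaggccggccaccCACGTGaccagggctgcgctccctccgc
Mael: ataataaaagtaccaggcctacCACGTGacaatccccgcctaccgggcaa
Sycp3: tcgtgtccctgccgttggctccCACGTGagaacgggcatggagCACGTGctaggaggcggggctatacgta
In Slc25a31 the E-box begins 93 bases before the gene's start and the E2F site 19 bases after it. TTCCCGCC, searched on both strands, is in 2.19% of all windows and in those of Slc25a31 and Ddx4 among the 11. Among the genes with the E-box, Ddx4, Mael, Slc25a31, Stag3, Stk31 and Taf7l had higher levels in Zscan4-positive cells, and Sycp3 and Tdrd1 lower ones. Dazl, with the largest difference of 1.49, has none in its window, nor have Tdrkh and Tex101, which were also higher. Whether the E-box bears on these levels was not tested.

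**Figure D5:**
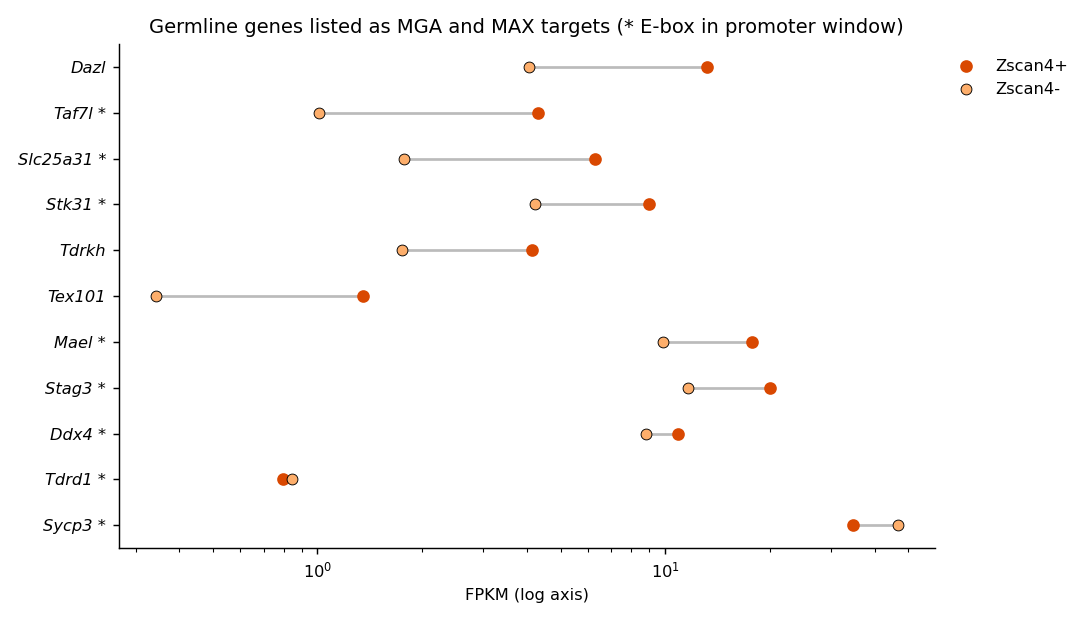
Level in FPKM (log axis) of 11 germline genes in Zscan4-positive and Zscan4-negative cells, 1 value each, ordered by the difference in log2(FPKM + 1). A star marks the 8 genes with CACGTG in the promoter window, and 9 of 11 genes lie to the right in Zscan4-positive cells, with Sycp3 and Tdrd1 as the others.

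Genes that work with the network differed by less than 2-fold throughout, where 1.56% to 16% of all rows were past 2-fold in the 5 comparisons. Of 9 MYC coactivator genes, which include histone acetyltransferases and their scaffolds, 8 were above 0 in double-positive minus double-negative cells, with a median of 0.36 against -0.02 over all rows (0.24 under equal FPKM totals). Wdr5, which anchors MYC to chromatin, was at 106 against 66.4 FPKM and Actl6a, a subunit of the TIP60 complex, at 191 against 120 FPKM. The corepressor list of 7 genes also holds Zbtb17, the gene of a DNA-binding factor. Of the 7, 6 were above 0 in the same comparison, Zbtb17 among them, with a median of 0.31 (0.19 under equal FPKM totals). Sin3a, the scaffold that MXD proteins bind, was at 58.8 against 44.7 FPKM. Hdac2, a histone deacetylase gene and the most abundant of the 7, was at 118 against 95.4 FPKM. Hdac1, the 1 gene below 0, was at 11 against 15.6 FPKM. Of 9 genes for turnover of MYC proteins, 6 were above 0 and 3 below in this comparison, with a median of 0.07 (-0.04 under equal FPKM totals). Skp2, an F-box gene, was at 40.2 against 24.8 FPKM and Aurka, whose kinase protects MYCN from degradation, at 104 against 65.0 FPKM. Fbxw7, the other F-box gene, was at 11.6 against 11 FPKM. Lower levels were those of Trim32, at 7.22 against 11 FPKM, Gsk3b, at 10.1 against 13.8 FPKM, and Gsk3a, at 40.4 against 42.4 FPKM. Huwe1, a ubiquitin ligase gene and the most abundant of the 9, was at 108 against 103 FPKM. In Zscan4-positive against Zscan4-negative cells, Aurka was at 124 against 86.8 FPKM and Fbxw7 at 15.5 against 12.3 FPKM.

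Growth genes known as MYC targets did not run with Myc itself. Of 30 such genes, 26 were above 0 in double-positive minus double-negative cells, where Myc was lower, with a median of 0.31. With equal FPKM totals it came to 0.19, and to 0.16 when the wider shared profile was also left out, while these scalings moved the median of all rows to -0.12 and -0.15. Between double-positive and double-negative cells Mycn was at 148 against 122 FPKM, and the summed MYC family at 183 against 179 FPKM. The 8 ES cell markers had a median of 0.66 there, with 7 above 0 and 1 below. Whether growth genes differed from other ES cell transcripts, or depended on Myc, was not tested. Ncl, the nucleolin gene, was at 425 against 341 FPKM, Srm, which makes spermidine, at 345 against 223 FPKM and Tfrc, the transferrin receptor gene, at 131 against 79.9 FPKM. Odc1, the ornithine decarboxylase gene, was at 58.7 against 84.7 FPKM, but at 58.7 against 53.9 FPKM in double-positive and single-positive cells and at 97.0 against 87.1 FPKM in Zscan4-positive and Zscan4-negative cells, where Myc was lower. In the Zscan4 sort, with the lower Myc level of 25.4 against 44.5 FPKM, 14 of the 30 were above 0 and 16 below, with a median of -0.05.

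Ccnd2, the cyclin D2 gene, was the only growth gene past 2-fold, and was so in 3 of the 4 comparisons within a line, where 6.94%, 12.2% and 0.875% of all rows were lower. The call in the Zscan4 sort, at -1.04, was lost with a pseudocount of 5. It was at 29.5, 15.3 and 4.58 FPKM in double-negative, single-positive and double-positive cells, and at 6.0 FPKM in Zscan4-positive against 13.4 in Zscan4-negative cells. Like Myc it was lower at each step and with the Zscan4 reporter on. Its single-positive over double-negative ratio was 0.519, below the middle 95% of the 484 rows but within the 0.5 to 1 that selected them. Ccnd2 is in neither these rows nor the wider shared profile, as it kept 0.453 of its double-negative level in Zscan4-negative cells. Of 6 genes that MYC represses, only Gas1 was past 2-fold, at 1.17 FPKM in double-positive against 27.1 in single-positive and 36.9 in double-negative cells, and it is itself one of the 484 rows. Of all rows, 6.94% and 12.2% were lower in these comparisons. Cdkn1a, the gene of the cell cycle inhibitor p21, was at 22.9 against 28.5 FPKM in double-positive and double-negative cells, and at 19.2 against 15.6 FPKM in Zscan4-positive and Zscan4-negative cells.

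Profiles most like those of 4 members were sought among 9218 other protein-coding rows with at least 5 FPKM in a fraction, by the Euclidean distance of log2(FPKM + 1) centred over the 5 fractions. The 3 nearest to Myc were Ccdc137 (distance 0.05), Lrfn4 (0.13) and Nsmaf (0.14), and 9 rows lay within 0.2. Ccdc137 was at 8.86, 6.49 and 5.32 FPKM over the 3 steps and at 4.24 FPKM in Zscan4-positive against 8.15 in Zscan4-negative cells. Nearest to Mycn were Prkar2a (0.03), Tnfrsf22 (0.06) and Lmbrd2 (0.06), with 475 rows within 0.2, so its flat profile is a common one. Nearest to Mga were Arhgef3 (0.11), Bcl7b (0.12) and Gpc3 (0.13), with 34 rows within 0.2. Nearest to Mxd4 were Nmi (0.11), Eid1 (0.21) and Commd3 (0.24), with 1 row within 0.2. With 5 values a gene these distances are descriptions.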

How the data were processed

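RNA of sorted E14Tg2a.4 mouse ES cells was extracted with a Qiagen kit and made into NEBNext Ultra libraries, per the labels' protocols. Cuffdiff 2.2.1, Cufflinks, TopHat2 2.0.14 and bcl2fastq 1.8.4 are named, with build mm10, per the submitters' processing notes. Although titled as counts, the deposited table gives the authors' FPKM, a single value for each row and fraction in which both libraries are merged. Depth is therefore unknown, and no test, interval or paired fit could be made. FPKM is relative to the fragments of its library. Depending on how the columns were scaled, abundant RNA of other cells can lower other values in its column. Whether it did so here was not tested. As reported, the median difference over all rows lay between -0.02 and 0.01 in the 5 comparisons.

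Rows that reached 1 FPKM in any of 5 fractions were compared as differences of log2(FPKM + 1), which understates differences of low genes, with a 2-fold size rule. The steps recovered changes planted in simulated data, which checks the code only and gives no error for the values here. Starts in the table count from 0 and are written from 1. All 142 genes of 13 lists were found. The members, lists and windows, among them the fibroblast and T-cell markers, were chosen with earlier results of these data known. All 8 members were named in full, and from each list up to 4 genes past 2-fold by size of difference or, with none past it, the most abundant one. Nearest profiles were taken for Myc, Mycn, Mga and the member of widest range. Other genes of the lists were chosen after their values were seen. For 9 alternatives (pseudocount, filter, 3 scalings, summed rows and leaving out profile rows) the member differences, counts past 2-fold and list medians within a line were recomputed, and shares, ratios and nearest profiles were not. Python 3.11.15, pandas 2.3.3, numpy 2.4.6 and matplotlib 3.10.9 were used.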

Additional observations from a re-analysis of the deposited data

How the results depend on the processing

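Over 9 alternatives, 355 differences of the 8 members were recomputed, and all 355 stayed on the same side of 2-fold. For many of them this was fixed beforehand. Changed filters, summed rows and leaving out profile rows could only return a member's reported difference, so they are no check on it. Only the pseudocounts and the scalings could move a member across 2-fold. Mxd4, the only member past 2-fold, has no value where the profile rows were left out. Of the 355 differences, 10 changed sign, all under equal FPKM totals with or without the wider shared profile. Each of these was within 0.05 of 0 as reported. Of 252 list medians, 21 changed sign.

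With a pseudocount of 0.1, rows higher and lower numbered 428 and 469 for single-positive minus double-negative, 153 and 1460 for double-positive minus single-positive, 835 and 280 in the Zscan4 sort, and 341 and 339 for double-positive minus Zscan4-negative cells. Pathway list genes past 2-fold were then 4 lower in single-positive and 5 lower in double-positive against double-negative cells, and 6 higher in the Zscan4 sort, the 6 all germline genes. With a pseudocount of 5, rows higher and lower numbered 119 and 58, 29 and 304, 261 and 591 (double-positive minus double-negative), 201 and 43, and 34 and 38. Pathway list genes were then 0 lower in single-positive minus double-negative cells, 0 higher in double-positive minus double-negative cells, 1 higher (a germline gene) and 0 lower in the Zscan4 sort. With at least 5 FPKM in a fraction, lower rows numbered 612 in double-positive minus single-positive and 972 in double-positive minus double-negative cells, and 303 rows were higher in the Zscan4 sort. Stag3 was the 1 list gene at least 2-fold higher in double-positive minus double-negative cells, and this number was 0 under equal totals, with or without the wider shared profile. Without the rows of the wider shared profile, an alternative added after the data had been seen, 290 and 880 rows were lower in double-positive than in single-positive and double-negative cells, and 0 members, because Mxd4 is one of those rows.

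No paired analysis was possible because the table holds 1 merged value a fraction, and leaving out replicates was not run for the same reason. Differences of a few percent between fractions, as for Max, cannot be told from error in these data.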

Other observations

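The MLX branch, which pairs MLX with glucose-sensing partners in parallel to MAX, differed by less than 2-fold in all comparisons. Of all rows, 1.56% to 16% were past 2-fold in these comparisons. Mlx was at 23.1, 25.3 and 24.2 FPKM in double-negative, single-positive and double-positive cells, and at 24.5 FPKM in Zscan4-positive against 25.6 in Zscan4-negative cells. Mlxip, which encodes MondoA, was at 12.8 FPKM in Zscan4-positive against 7.40 in Zscan4-negative cells, a difference of 0.71, and at 10.5, 9.17 and 8.60 FPKM over the 3 steps. Mlxipl, which encodes ChREBP, was at 2.53 against 2.13 FPKM in the Zscan4 sort.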
